A study of Mus musculus with 11 samples.

Results

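The cytosolic ribosomal protein genes of mouse brain were described in normal brain and in 2 kinds of transposon-driven brain tumor. The genes were found by symbol: names of Rpl or Rps followed by a number, with Rpsa, Rplp0, Rplp1 and Rplp2 added and Rps27l and the S6 kinases left out, kept where at least 3 of the 11 libraries reached 1 FPKM (fragments per kilobase of transcript and per sequencing depth, the deposited unit, which compares levels between genes per length). Among 24320 gene symbols, 83 matched and 80 passed, 48 for the large subunit and 32 for the small subunit. Each of the 80 was at or above 1 FPKM in every library, so the filter selected no gene through 1 group alone. The 3 that stayed below it are copies known for expression in testis or in heart and skeletal muscle: Rpl10l was listed at 0 in every library, Rpl39l reached at most 0.671 FPKM and Rpl3l at most 0.300 FPKM. The gene nearest the filter from above, Rps4l, ran from 1.20 to 15.3 FPKM.

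Tumors had been made with the Sleeping Beauty transposon system in neonatal mice, by injecting plasmids for the transposase, firefly luciferase, the SV40 large T antigen and either NRAS G12V, a constitutively active RAS GTPase, or PDGFB, a growth factor, into the right lateral ventricle. Both tumor groups thus share large T, which binds p53 and Rb, and differ in NRAS or PDGFB. Tissue was taken at a middle stage of growth, and the tumor region was dissected by its GFP fluorescence, so a tumor library holds tumor cells together with the host cells among them. The series text names FVB mice, whereas the sample labels give B6 for all 4 NRAS tumors, all 4 PDGFB tumors and normal brains 1 and 2, and FVB for normal brain 3. Normal brain is labelled as a wild type control, and no age is given for any group. Titles match normal brain 1 to NRAS tumor 2 and normal brain 3 to PDGFB tumor 1, without saying what was matched. Whether samples of 1 group come from separate animals is not labelled, and p-values may then reflect technical spread only. Title numbers run from 1834 to 1838 for the normal brains and NRAS tumors 1 and 2, and from 2038 to 2046 for the other tumors, and what the numbers stand for is not stated. The study asked which human glioblastoma subtype each model resembles.

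A ribosome is built of a small subunit, which reads the messenger RNA, and a large subunit, which joins amino acids and holds the tunnel through which the new protein leaves. Each subunit is ribosomal RNA, made largely by RNA polymerase I in the nucleolus, with ribosomal proteins, most of which are present once in each ribosome. The mRNAs of these proteins are abundant in most cells and begin with a run of pyrimidines, through which mTORC1 signaling sets their translation, and MYC is known to raise transcription of ribosomal proteins, of polymerase I subunits and of assembly factors. Several ribosomal proteins have duties beside the ribosome: free Rpl5, Rpl11 and Rpl23 bind Mdm2, the ligase that removes p53.

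The label check held for the induced genes. Nras stood at 82.0 to 154 FPKM in NRAS tumors, 31.7 to 42.9 in PDGFB tumors and 13.01 to 17.5 in normal brain, and Pdgfb at 745 to 1564 FPKM in PDGFB tumors and 5.15 to 7.80 in all other libraries. The files give no read totals, so depth per library is not known. The upper quartile of the genes tested was 24.96 to 26.8 FPKM in all 11 libraries, while rows of small RNA genes took 10.5% to 42.8% of the FPKM sum, and shares below are given without those rows.

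Ribosomal protein transcripts made up a far larger part of the mRNA in tumors than in normal brain. The summed FPKM of the 80 genes was 26501, 23495 and 20582 in normal brains 1, 2 and 3. It was 77028, 43587, 58713 and 62912 in NRAS tumors 1 to 4, and 55565, 73541, 66925 and 95030 in PDGFB tumors 1 to 4. The lowest tumor, NRAS tumor 2, was above the highest normal brain, and the NRAS and PDGFB ranges overlapped. The mean sum was 23526 ± 2960 FPKM (SD, n = 3) in normal brain, 60560 ± 13763 (SD, n = 4) in NRAS tumors and 72765 ± 16596 (SD, n = 4) in PDGFB tumors, 2.57-fold and 3.09-fold the normal mean. As a share of all FPKM without small RNA rows, the genes held 4.80% to 6.08% in normal brain, 10.2% to 16.1% in NRAS tumors and 12.9% to 17.6% in PDGFB tumors. Among the 100 most abundant genes of a library, 8 to 17 were ribosomal protein genes in normal brain, 47 to 59 in NRAS tumors and 57 to 62 in PDGFB tumors. FPKM is a share of the sequenced RNA, so neither RNA per cell nor ribosomes per cell can be read from it, and in bulk tissue fewer cells of a type and less RNA per cell cannot be told apart.

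**Figure D1:**
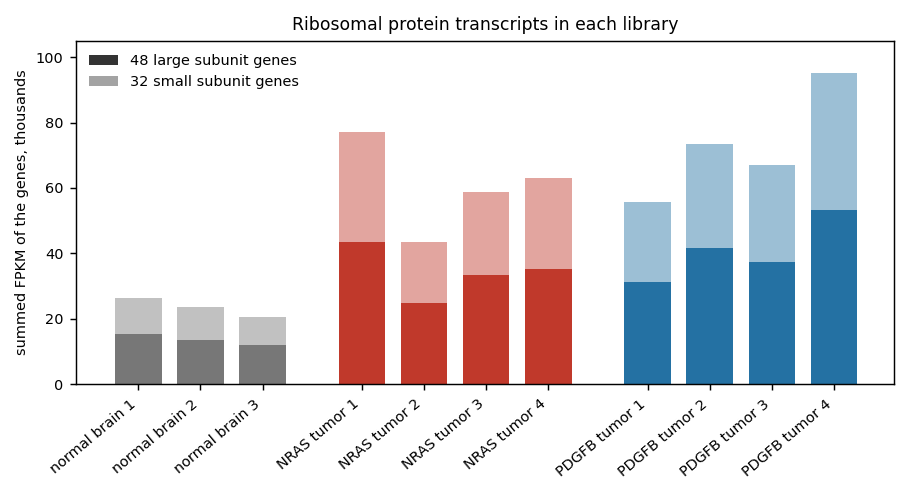
Summed FPKM (vertical axis, in units of 1000 FPKM) of the 48 large subunit genes (full color) and the 32 small subunit genes (pale) in each of the 11 libraries, 1 bar per library. All 8 tumors, from 43587 FPKM in NRAS tumor 2 to 95030 FPKM in PDGFB tumor 4, stand above the 3 normal brains at 20582 to 26501 FPKM.

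Both subunits contributed. Large subunit genes summed to 13574 ± 1691 FPKM in normal brain (SD, n = 3), 34287 ± 7693 in NRAS tumors (SD, n = 4) and 40919 ± 9340 in PDGFB tumors (SD, n = 4). Small subunit genes summed to 9952 ± 1270, 26273 ± 6075 and 31847 ± 7258 FPKM in the same groups. The ratio of the large to the small subunit sum was 1.35 to 1.37 in normal brain, 1.28 to 1.33 in NRAS tumors and 1.27 to 1.30 in PDGFB tumors, so that each tumor lay below each normal brain. No test was run on this ratio, which is a score over the genes. The separation holds for these sums only. They leave out Rps27rt and Rpl34-ps1, copies of Rps27 and Rpl34 with rows of their own. Rps27 and Rps27rt together averaged 785 FPKM in normal brain, 1620 in NRAS tumors and 2023 in PDGFB tumors. How reads were shared among copies thus bears on the ratio.

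The genes moved as a block from library to library within a group. NRAS tumor 1 had the highest NRAS level of 70 of the 80 genes and NRAS tumor 2 the lowest of 74. PDGFB tumor 4 had the highest PDGFB level of 78 genes and PDGFB tumor 1 the lowest of 77. In normal brain, replicate 1 was highest for 75 genes and replicate 3 lowest for 75. Against the mean of the normal brains, the median gene was 0.92 higher on the log2 scale in NRAS tumor 2 and 1.99 higher in PDGFB tumor 4, with the other 6 tumors between 1.26 and 1.75. An exception, chosen after its values were seen, was Rpl26, a protein beside the exit tunnel with a copy listed in a row of its own. It was lowest in PDGFB tumor 4 at 52.6 FPKM while PDGFB tumors 1 to 3 had 81.5, 90.8 and 68.7 FPKM. Marker genes of other cells also differed between these libraries. The summed level of 6 genes of dividing cells was 214 FPKM in NRAS tumor 2 and 658 in NRAS tumor 1, and that of 8 neuron genes was 1112 in NRAS tumor 2 and 228 in NRAS tumor 1. In the PDGFB tumors these sums did not follow the order of the ribosomal protein genes: the genes of dividing cells summed to 591 FPKM in PDGFB tumor 4 and 589 in PDGFB tumor 1, with the highest sum, 933, in PDGFB tumor 2, and the neuron genes to 533 in PDGFB tumor 4, 597 in PDGFB tumor 1 and 103 in PDGFB tumor 2. Their part in the order of the libraries was not tested.

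In NRAS tumors against normal brain, 77 of the 80 genes were higher and 1 was lower in limma's test with Benjamini-Hochberg adjustment over the 14491 genes tested, at an adjusted p under 0.05. Over all genes tested 32.0% were higher and 30.3% lower. The median ribosomal protein gene rose by 1.37 on the log2(FPKM + 1) scale, a fold of 2.59, beside a median of 0.01 over all genes tested. For 77 genes every NRAS tumor was above every normal brain and for 1 every tumor was below, against 33.2% and 31.9% of all genes tested. Within title numbers 1834 to 1838 alone (2 NRAS tumors, 3 normal brains) 66 genes were higher and 1 lower, with a median of 1.35. The shares and the median over all genes in this smaller fit are not given here.

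In PDGFB tumors against the same normal brains, 78 genes were higher and 1 lower, where 29.3% and 29.2% of all genes tested were called. The median gene rose by 1.58 on the log2(FPKM + 1) scale, a fold of 2.99, beside 0.04 over all genes. Each PDGFB tumor was above each normal brain for 78 genes and below for 1, against 33.8% and 32.0% of all genes tested. PDGFB tumors and normal brains share no title number series, so the series and the groups cannot be told apart by these samples alone. With the series as a covariate, estimated from the NRAS tumors of both series, 64 genes were higher and 1 lower. The shares over all genes in that fit are not given here. Both comparisons use the same 3 normal brains and are not independent.

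**Figure D2:**
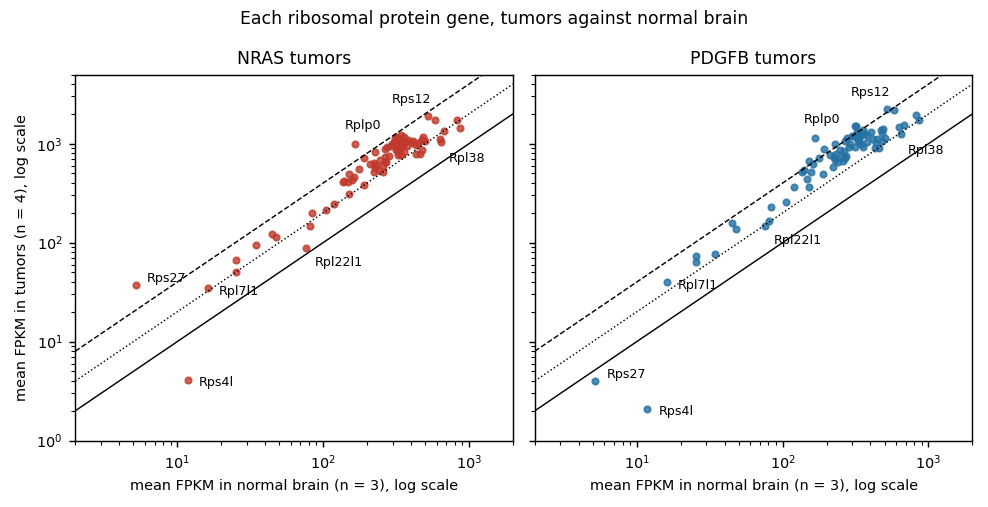
Mean FPKM of each of the 80 genes in tumors (vertical axis, n = 4) against normal brain (horizontal axis, n = 3), both on log scales, with NRAS tumors at left and PDGFB tumors at right. The solid line marks equal levels and the dotted and dashed lines mark 2-fold and 4-fold higher levels in tumors. Most genes lie between 2-fold and 4-fold, Rplp0 lies above 4-fold in both panels and Rps4l lies below the line of equal levels.

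The genes with the highest mean level over the 11 libraries were Rps12, Rpl23a and Rpl41. Rps12, a protein of the small subunit head, stood at 590, 553 and 422 FPKM in normal brains 1 to 3, at 2501, 1263, 1840 and 2080 in NRAS tumors 1 to 4, and at 1868, 2260, 2143 and 2715 in PDGFB tumors 1 to 4. No tumor overlapped the normal brains. It rose by 1.85 in NRAS tumors (SE 0.26, adjusted p = 0.00025, limma) and by 2.11 in PDGFB tumors (SE 0.26, adjusted p = 0.00011) on the log2(FPKM + 1) scale. Rpl23a, which lies at the exit tunnel and is a docking site for factors that act on the new protein, averaged 584 ± 61.1 FPKM in normal brain (SD, n = 3), 1742 ± 385 in NRAS tumors (SD, n = 4) and 2180 ± 448 in PDGFB tumors (SD, n = 4). Rpl41, the shortest of the proteins at 25 codons, averaged 822 ± 93.9, 1740 ± 403 and 1928 ± 503 FPKM. At the low end stood Rps4l, Rps27 and Rpl7l1, which are described below.

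**Figure D3:**
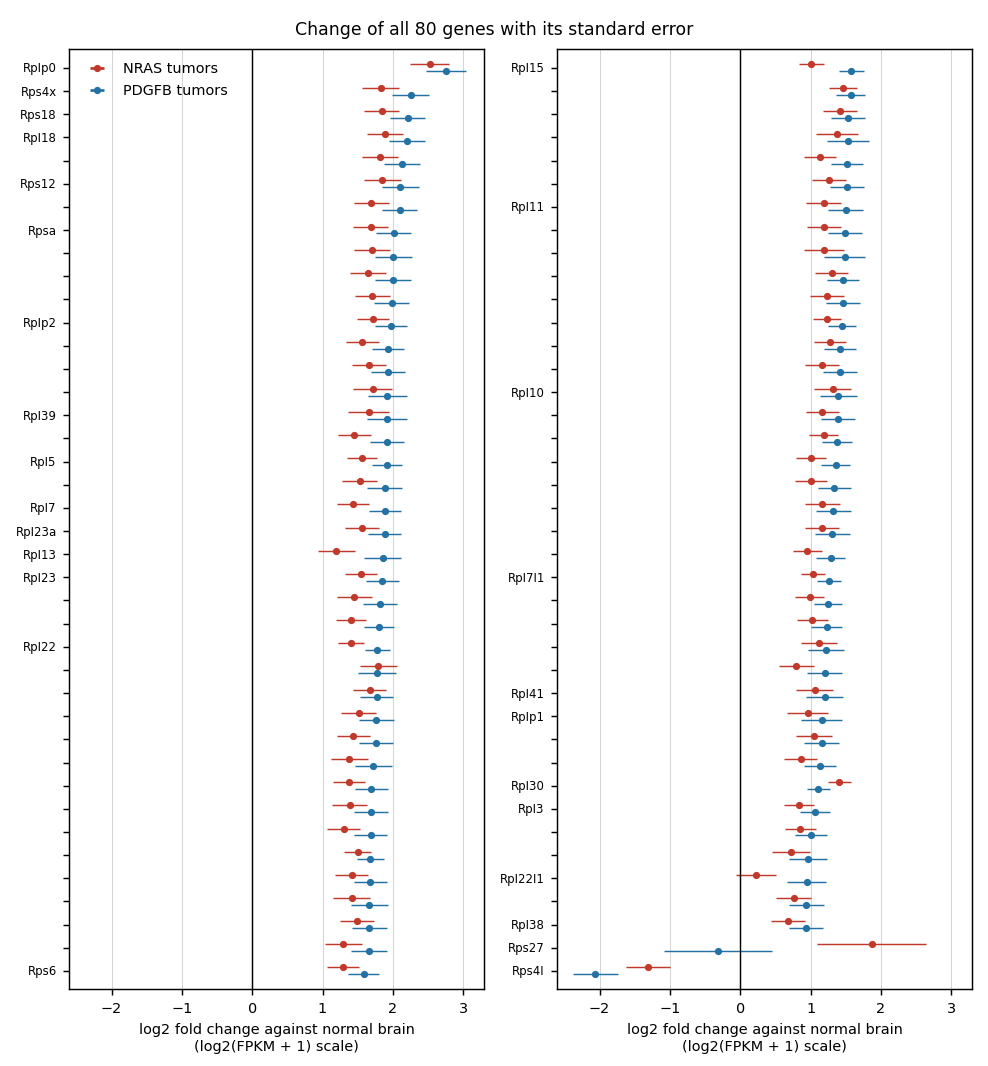
Log2 fold change against normal brain (horizontal axis, log2(FPKM + 1) scale) of all 80 genes, NRAS tumors in red and PDGFB tumors in blue, with bars of 1 standard error from limma, ordered by the PDGFB value over both panels and labelled for the genes chosen by the naming rule. All but Rps4l, Rps27 and Rpl22l1 lie between 0.68 and 2.76 in both comparisons, and Rplp0 leads at 2.53 and 2.76.

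The stalk of the large subunit, which calls elongation factors to the ribosome, held the gene with the largest rise. Rplp0, its base, stood at 184, 153 and 162 FPKM in normal brains 1 to 3. It stood at 1342, 597, 877 and 1198 in NRAS tumors 1 to 4 and at 876, 1200, 1035 and 1467 in PDGFB tumors 1 to 4. The lowest tumor stood well above the highest normal brain. It rose by 2.53 in NRAS tumors (SE 0.28, adjusted p = 5.8e-05, limma) and by 2.76 in PDGFB tumors (SE 0.28, adjusted p = 3.1e-05). Its partners in the stalk, which bind it as dimers, rose less: Rplp2 by 1.71 and 1.97, and Rplp1 by 0.96 and 1.16 (largest adjusted p of these 0.014). In normal brain Rplp0 stood at 0.583 ± 0.0645 of the median ribosomal protein gene (SD, n = 3) and Rplp1 at 2.36 ± 0.0954 of it. In NRAS tumors these ratios were 1.23 ± 0.216 and 1.68 ± 0.262 (SD, n = 4), and in PDGFB tumors 1.18 ± 0.0115 and 1.59 ± 0.253. Rplp0 thus passed from below the median gene to above it in 7 of the 8 tumors, and stood just under it in NRAS tumor 2.

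Genes of the small subunit head (14 genes) were all higher in each tumor comparison, with medians of 1.50 in NRAS tumors and 1.77 in PDGFB tumors. Among all 80 genes 77 and 78 were higher, with medians of 1.37 and 1.58, so the count is near that of the family. Of all genes tested 32.0% and 29.3% were higher. The genes of the head included genes of large and of small change. Rps18, which lies where the subunits meet, rose by 1.84 and 2.21, from 321 ± 33.7 FPKM in normal brain (SD, n = 3) to 1182 ± 328 in NRAS tumors and 1508 ± 314 in PDGFB tumors (SD, n = 4). Rps29, chosen after its values were seen, rose by 0.72 and 0.96, from 866 ± 128 FPKM to 1442 ± 288 and 1725 ± 507. Its tumor libraries, from 1063 FPKM, still lay above the highest normal brain at 999 FPKM.

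Proteins around the exit tunnel (8 genes) were all higher in each tumor comparison, with medians of 1.39 in NRAS tumors and 1.60 in PDGFB tumors. This count too is near that of the family, 77 and 78 of 80, where 32.0% and 29.3% of all genes tested were higher. Rpl39, a small protein that lines the tunnel, rose by 1.66 and 1.92, from 357 ± 47.97 FPKM in normal brain (SD, n = 3) to 1159 ± 326 and 1382 ± 403 in the tumors (SD, n = 4). Other large subunit genes of the core also rose, by differing amounts: Rpl7 by 1.43 and 1.88, Rpl10, one of the last proteins to join the subunit, by 1.32 and 1.39, and Rpl3, which lies near the peptidyl transferase center, by 0.84 and 1.06. Rpl18 rose by 1.89 and 2.203.

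The 3 genes whose proteins bind Mdm2 rose in each comparison. Rpl5 rose by 1.56 and 1.91, Rpl11 by 1.19 and 1.50, and Rpl23 by 1.55 and 1.85, NRAS tumors before PDGFB tumors (largest adjusted p 0.0021, limma). Of the 19 genes known to be mutated in Diamond-Blackfan anemia, a failure of red cell production, 18 rose in each comparison and Rps27 did not pass. The counts for both sets are near that of the family, where 77 and 78 of 80 were higher. Of all genes tested 32.0% were higher in NRAS tumors and 29.3% in PDGFB tumors. Rps6, the substrate of the S6 kinases, rose by 1.29 and 1.58, and Rpsa, also known as the laminin receptor, by 1.69 and 2.01 (adjusted p = 9.5e-05 to 0.00069).

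Genes under 100 codons had a smaller median change. Rpl38, of 70 codons, stood at 768, 609 and 554 FPKM in normal brains 1 to 3, at 1301, 864, 1021 and 946 in NRAS tumors 1 to 4, and at 914, 1270, 1111 and 1698 in PDGFB tumors 1 to 4. No tumor overlapped normal brain, but NRAS tumor 2 was only a little above normal brain 1. It rose by 0.68 (SE 0.25, adjusted p = 0.032, limma) and 0.93 (SE 0.25, adjusted p = 0.0071). The 9 genes under 100 codons, grouped after their values were seen, had a median change of 1.01 in both tumor comparisons, and the 70 coding genes of 100 codons or more had medians of 1.38 and 1.66. Across the 79 coding genes the change rose only weakly with coding length, with Pearson's r of 0.16 and 0.25 and Spearman's rho of 0.14 and 0.26 in NRAS and PDGFB tumors. These points share the same libraries, and no test was made of them.

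To compare the genes with one another, the log2 values of each library were centred on the median of the 80 genes, so that a call means a change relative to that median. In NRAS tumors 7 genes were then higher (5.29% of all genes tested) and 26 lower (78.5% of all genes, which as a body fall when the ribosomal protein genes are held level). In PDGFB tumors 8 were higher (2.84% of all genes) and 30 lower (86.9%). Since most genes tested are called in this fit, the adjustment removes little among the 80. At an unadjusted p under 0.05 by limma, 9 were higher and 26 lower in NRAS tumors, and 9 and 30 in PDGFB tumors. Those higher in NRAS tumors included Rplp0, Rpl18, Rps12, Rps18, Rps4x and Rpl12, and in PDGFB tumors Rplp0, Rps4x, Rps18, Rpl18, Rps12, Rps19 and Rpl32. Relative to the median gene, Rplp0 was 1.07 higher in NRAS tumors (SE 0.15, adjusted p = 4.1e-05, limma) and 1.02 higher in PDGFB tumors (adjusted p = 3.2e-05). Rpl38 fell by 0.78 and 0.81 relative to it, and Rpl3 fell by 0.62 and 0.67 (largest adjusted p of these 0.00033). Rps29 and Rps21, chosen after their values were seen, stood at -0.74 and -0.70 in NRAS tumors and at -0.78 and -0.80 in PDGFB tumors. As a share of the sum of all 80 genes, Rplp0 went from 0.710% ± 0.0699 in normal brain (SD, n = 3) to 1.63% ± 0.241 in NRAS tumors and 1.57% ± 0.0412 in PDGFB tumors (SD, n = 4), while Rpl38 went from 2.73% ± 0.156 to 1.73% ± 0.197 and 1.70% ± 0.0654. Neither the Rplp0 nor the Rpl38 shares of normal brain and tumor libraries overlapped.

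**Figure D4:**
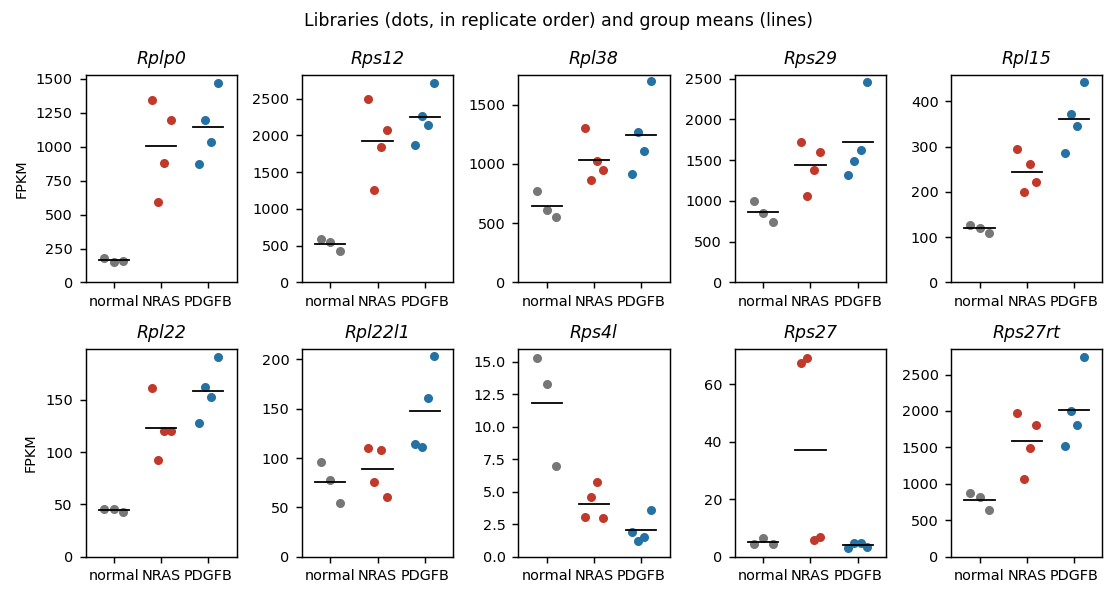
FPKM (vertical axes, each from 0) of 10 genes in normal brain (grey, n = 3), NRAS tumors (red, n = 4) and PDGFB tumors (blue, n = 4), with dots for libraries in replicate order and lines for group means. Rplp0 separates tumors from normal brain most widely, Rpl22l1 overlaps between NRAS tumors and normal brain, Rps4l is highest in normal brain, and Rps27 is high only in NRAS tumors 1 and 2 while Rps27rt, its copy, follows the other genes.

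Promoters of the genes were compared by sequence, since the genes move together. RefSeq promoters of GRCm38.p6, from 250 bases before to 50 after the start, matched 59 of the 80 genes. A run of at least 8 pyrimidines anywhere within 30 bases of the annotated start was found in 30 of the 59 (50.8%) and in 22.1% of all 17491 promoters of coding genes. The run that mTORC1 acts on lies at the very start of the mRNA, so this wider window does not measure it. The ETS factor motif CCGGAAG, on either strand, was found in 23 (39.0%) and in 11.9% of all promoters. The palindrome CTCGCGAG was found in 10.2% against 1.30%, the CRE motif TGACGTCA in 8.48% against 2.34%, the YY1 motif AAGATGGC in 8.48% against 3.23%, and the E-box CACGTG, which MYC binds, in 8.48% against 7.90%. The letters TATAA, within 50 bases before the start on the coding strand, were found in 8.48% against 5.98%. A match is a description of letters and not of binding. The start used by a gene in these samples was not measured, so a gene without the run here may still have it in its mRNA. The 30 genes with the pyrimidine run had median changes of 1.38 and 1.58 in NRAS and PDGFB tumors, and the 29 without it 1.32 and 1.57. The 23 with the ETS motif had medians of 1.28 and 1.53, and the 36 without it 1.41 and 1.68. The bases from 60 before to 10 after the start are shown for genes with large changes (Rplp0, Rps4x, Rps18) and with small ones (Rpl38, Rpl22l1), with the pyrimidine run and the ETS motif in capitals.
Rplp0 promoter, chr5:115559407-115559476, plus strand: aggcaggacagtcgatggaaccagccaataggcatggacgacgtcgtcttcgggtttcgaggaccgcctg
Rps4x promoter, chrX:102189382-102189451, minus strand: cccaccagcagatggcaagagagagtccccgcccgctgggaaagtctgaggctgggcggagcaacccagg
Rps18 promoter, chr17:33955656-33955725, minus strand: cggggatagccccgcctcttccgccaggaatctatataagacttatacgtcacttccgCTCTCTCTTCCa
Rpl38 promoter, chr11:114668520-114668589, plus strand: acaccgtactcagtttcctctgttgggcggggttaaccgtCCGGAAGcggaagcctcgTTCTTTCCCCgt
Rpl22l1 promoter, chr3:28805448-28805517, plus strand: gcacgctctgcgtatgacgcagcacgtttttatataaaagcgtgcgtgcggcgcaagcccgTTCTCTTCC
The run lies at the start of Rps18, a gene of large change, and equally at the starts of Rpl38 and Rpl22l1, and no such run stands in capitals for Rplp0 or Rps4x.

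Among the paralogs of ribosomal protein genes, Rps4l was the gene that fell. It stood at 15.3, 13.2 and 6.99 FPKM in normal brains 1 to 3, the last of which is the FVB sample, at 3.05, 4.56, 5.75 and 2.95 in NRAS tumors 1 to 4, and at 1.92, 1.20, 1.55 and 3.59 in PDGFB tumors 1 to 4. Every tumor was below every normal brain. It fell by 1.31 in NRAS tumors (SE 0.32, adjusted p = 0.0043, limma) and by 2.06 in PDGFB tumors (SE 0.32, adjusted p = 0.00034). The GENCODE M21 annotation lists it as a transcribed processed pseudogene at chr6:148354656-148355598, plus strand (GRCm38), that is, a copy of the Rps4x mRNA put back into the genome. Rps4x itself, at chrX:102184941-102189394, rose by 1.82 and 2.25, from 312 ± 39.5 FPKM in normal brain (SD, n = 3) to 1137 ± 314 and 1512 ± 329 in the tumors (SD, n = 4). The level of Rps4l as a percentage of that of Rps4x was 2.55% to 4.33% in normal brain, 0.201% to 0.608% in NRAS tumors and 0.0789% to 0.186% in PDGFB tumors. The Rps4x coding sequence of 789 bases aligned to Rps4l without gaps over 783 bases with 157 mismatches, an identity of 79.9%. The first 150 coding bases of both are shown, with the 31 mismatches in capitals.
Rps4x: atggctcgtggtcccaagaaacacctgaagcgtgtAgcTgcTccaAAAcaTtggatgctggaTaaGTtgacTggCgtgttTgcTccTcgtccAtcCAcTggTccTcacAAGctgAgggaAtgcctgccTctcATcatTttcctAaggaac
Rps4l: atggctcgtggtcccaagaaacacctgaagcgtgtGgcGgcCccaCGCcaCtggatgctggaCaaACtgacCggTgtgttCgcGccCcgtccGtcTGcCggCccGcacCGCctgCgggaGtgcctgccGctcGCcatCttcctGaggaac

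Rpl22l1, the paralog of Rpl22, did not pass the test in NRAS tumors; a copy of it has a row of its own. Rpl22 and its paralog are known to stand in for each other in ribosomes, and Rpl22 protein to hold down its paralog. Rpl22l1 stood at 95.6, 77.5 and 54.2 FPKM in normal brains 1 to 3, at 111, 75.6, 108 and 61.0 in NRAS tumors 1 to 4, and at 115, 111, 161 and 203 in PDGFB tumors 1 to 4. NRAS tumors overlapped normal brain and PDGFB tumors did not. The change was 0.22 in NRAS tumors (SE 0.28, adjusted p = 0.51, limma) and 0.94 in PDGFB tumors (SE 0.28, adjusted p = 0.014). The PDGFB call was lost once values were scaled to the other genes (adjusted p = 0.081), once the series was a covariate (adjusted p = 0.096) and when normal brain 3 was left out (adjusted p = 0.071). The difference between the tumor groups was -0.72 (SE 0.26) and did not pass (adjusted p = 0.063). Rpl22 rose by 1.41 and 1.78, from 44.97 ± 1.52 FPKM in normal brain (SD, n = 3) to 123 ± 28.2 and 158 ± 26.3 (SD, n = 4). The ratio of Rpl22l1 to Rpl22 was 1.25 to 2.10 in normal brain, 0.509 to 0.897 in NRAS tumors and 0.681 to 1.06 in PDGFB tumors, so that the paralog exceeded Rpl22 in all 3 normal brains and, of the 8 tumors, only in PDGFB tumors 3 and 4. Rpl7l1, a paralog of Rpl7 known for a part in large subunit assembly, rose by 1.03 and 1.26, from 16.2 ± 2.06 FPKM to 34.6 ± 7.57 and 40.2 ± 5.16.

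Rps27 could not be told from a retrogene. It stood at 4.57, 6.69 and 4.37 FPKM in normal brains 1 to 3, at 67.3, 68.9, 5.66 and 6.85 in NRAS tumors 1 to 4, and at 3.04, 4.88, 4.67 and 3.35 in PDGFB tumors 1 to 4. Only NRAS tumors 1 and 2 were high, the 2 NRAS tumors with title numbers of the 1834 series. Its gene lies at chr3:90212522-90213651, minus strand (GRCm38), and Rps27rt, a single coding block annotated at chr9:114982366-114982739, minus strand, has the same 252 coding bases with no mismatch. Rps27rt stood at 643 to 879 FPKM in normal brain, 1068 to 1967 in NRAS tumors and 1525 to 2747 in PDGFB tumors. It rose by 0.99 (adjusted p = 0.0096, limma) and 1.35 (adjusted p = 0.0018). The change of Rps27 itself was 1.87 in NRAS tumors (SE 0.77, adjusted p = 0.054), that in PDGFB tumors was -0.32 (adjusted p = 0.75), and within title numbers 1834 to 1838 it was 3.50 in NRAS tumors (adjusted p = 0.00098). The sources used here do not say how reads that fit both genes were shared out. The summed FPKM of both was 785 ± 123 in normal brain (SD, n = 3), 1620 ± 391 in NRAS tumors and 2023 ± 523 in PDGFB tumors (SD, n = 4), with no overlap between normal brain and tumors, and Rps27 held 3.31% and 6.06% of it in NRAS tumors 1 and 2 and at most 0.810% in the other 9 libraries. The shared coding sequence is shown because values of Rps27 alone are uncertain for it.
Rps27 and Rps27rt: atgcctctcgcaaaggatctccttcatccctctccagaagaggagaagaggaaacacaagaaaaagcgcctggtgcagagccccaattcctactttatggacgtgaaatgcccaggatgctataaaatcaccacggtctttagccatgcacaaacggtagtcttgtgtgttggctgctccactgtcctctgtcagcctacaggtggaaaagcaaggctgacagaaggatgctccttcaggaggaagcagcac

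Near-identical copies are common in this family. Each coding sequence was searched against all GENCODE M21 transcripts for 97% identity or more over at least 90% of its length. By this search 69 of the 80 genes had a match in at least 1 other annotated gene or pseudogene. The number of such genes had a median of 4 and went up to 32 over the 80 genes. For 13 of the 80 such a gene has its own row in the table, as with Rpl34, which stood at 41.2 to 203 FPKM while Rpl34-ps1 stood at 317 to 1418. The matching rows include Wdr89 for Rplp2 and Med21 for Rps26, whose symbols are not of this family. The values of these 13 genes are uncertain for the same reason as those of Rps27. The 11 other genes, which include the unsearched Rps4l, had median changes of 1.38 and 1.57 in NRAS and PDGFB tumors, beside 1.37 and 1.58 for the 69 with a copy.

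Few of the genes were called between the tumor models. In NRAS tumors against PDGFB tumors 1 gene was higher and 1 lower in limma's test, where 14.3% and 12.2% of all genes tested were called. The median gene was at -0.27 on the log2(FPKM + 1) scale, beside -0.04 over all genes tested, and 4 of the 80 estimates were above 0. The groups did not overlap for 1 gene above (Rps27) and 1 below (Rpl22l1), against 12.9% and 11.6% of all genes. The lower gene was Rpl15, a large subunit protein, with 295, 199, 261 and 222 FPKM in NRAS tumors 1 to 4 and 287, 373, 345 and 443 in PDGFB tumors 1 to 4. NRAS tumor 1 lay just above PDGFB tumor 1, and the other NRAS tumors lay below all PDGFB tumors. The difference was -0.57 (SE 0.16, adjusted p = 0.027). It did not pass in a fit of the tumors alone (adjusted p = 0.063), with the median of the 80 genes held level (adjusted p = 0.18), or without NRAS tumor 2 or 4 or PDGFB tumor 2, 3 or 4 (adjusted p = 0.052 to 0.071). The higher gene was Rps27, at 2.18 (SE 0.71, adjusted p = 0.043), a call lost when any 1 of NRAS tumors 1 and 2, the PDGFB tumors or the normal brains was left out (adjusted p = 0.059 to 0.093). Within title numbers 2038 to 2046 (2 NRAS and 4 PDGFB tumors) no gene was called by limma in either direction, with 1 higher and 3 lower at an unadjusted p under 0.05, and the median was -0.24. Quantile normalization gave 11 lower and no higher gene. The shares over all genes in that fit and within numbers 2038 to 2046 are not given here, so these counts lack that scale.

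Other members that stood far from the median between the models did not pass. Rpl13, a large subunit protein, had 1119, 607, 775 and 571 FPKM in NRAS tumors 1 to 4 and 902, 1153, 1122 and 1608 in PDGFB tumors 1 to 4, a difference of -0.66 (SE 0.25, adjusted p = 0.069, limma). Rpl30, which has a copy in a row of its own, went the other way, at 98.4, 73.1, 89.3 and 117 FPKM in NRAS tumors and 64.2, 70.9, 83.7 and 85.3 in PDGFB tumors, a difference of 0.30 (SE 0.15, adjusted p = 0.17). With values centred on the median of the 80 genes, 3 genes were higher in NRAS tumors, namely Rps27, Rps4l and Rpl30 at 2.46, 1.03 and 0.58, where 14.6% of all genes were higher and 1.69% lower. No member was lower in that fit, and 2 were at an unadjusted p under 0.05.

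Proteins of the ribosome that the symbol rule leaves out rose too. Gnb2l1, the older symbol of Rack1, a scaffold on the small subunit, rose by 2.07 and 2.44, from 151 ± 11.5 FPKM in normal brain (SD, n = 3) to 666 ± 233 in NRAS tumors and 835 ± 159 in PDGFB tumors (SD, n = 4). Fau, which encodes a small subunit protein fused to a ubiquitin-like protein, rose by 1.17 in NRAS tumors and by 1.18 in PDGFB tumors (larger adjusted p 0.0024, limma). Rps27l, a p53 target left out by the rule, stood at 28.8 to 30.5 FPKM in normal brain, 227 to 328 in NRAS tumors and 192 to 398 in PDGFB tumors, and rose by 3.18 and 3.09, more than any member.

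The machinery that builds ribosomes was also mostly higher, with smaller medians. Of 64 ribosome assembly factors 50 were higher and 3 lower in each tumor comparison, with medians of 0.76 in NRAS tumors and 0.85 in PDGFB tumors. Among all genes tested, 32.0% were higher and 30.3% lower in NRAS tumors, and 29.3% and 29.2% in PDGFB tumors. Ddx21, a nucleolar helicase, rose by 2.39 in PDGFB tumors, and went from 7.600 ± 0.886 FPKM in normal brain (SD, n = 3) to 39.6 ± 10.4 in NRAS tumors and 45.1 ± 13.3 in PDGFB tumors (SD, n = 4). Ddx18 rose by 1.51 and Ppan by 1.57 in NRAS tumors, and Gar1, of the particles that modify ribosomal RNA, by 1.67 and Mrto4, which prepares the site for Rplp0, by 1.49 in PDGFB tumors. Of 19 subunits and factors of RNA polymerase I, 11 were higher and 1 lower in NRAS tumors and 14 higher and none lower in PDGFB tumors, with medians of 0.56 and 0.65. In PDGFB tumors 1 gene of that list was lower at an unadjusted p under 0.05 by limma. Polr1c, a subunit shared with polymerase III, rose by 0.97 and 1.33. The row for the 45S ribosomal RNA precursor, Rn45s, stood at 91.8 to 171 FPKM in normal brain, 66.8 to 121 in NRAS tumors and 86.1 to 147 in PDGFB tumors, so the groups overlapped. The sources used here do not say how ribosomal RNA was removed from the libraries.

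Most translation factors were higher in tumors. Of 33 initiation factors 28 were higher and 1 lower in NRAS tumors and 27 higher and 2 lower in PDGFB tumors. The shares over all genes tested were 32.0% higher and 30.3% lower in NRAS tumors and 29.3% and 29.2% in PDGFB tumors. Pabpc1, the poly(A) binding protein, rose by 2.32 and 1.84, Eif2s2 by 1.32 and 1.67, and Eif3l by 1.11 and 1.23. Of 10 elongation factors and related genes 7 and 8 were higher and 2 lower in each comparison. Eef1d and Eef1b2, exchange factors of elongation factor 1, rose by 1.47 and 1.32 in NRAS tumors and by 1.53 and 1.43 in PDGFB tumors, and Tpt1, another mRNA with a pyrimidine start, by 2.43 in PDGFB tumors. The 2 lower genes were Eif5a2, which fell by 1.54 and 1.25, and Eef1a2, the form of elongation factor 1A of neurons and muscle, which fell by 2.02 and 2.21. The neuron list moved with them: its 8 genes summed to 2109 to 2578 FPKM in normal brain, 228 to 1112 in NRAS tumors and 103 to 597 in PDGFB tumors, and 7 and 8 of 8 were lower. Its part in these values was not tested.

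**Figure D5:**
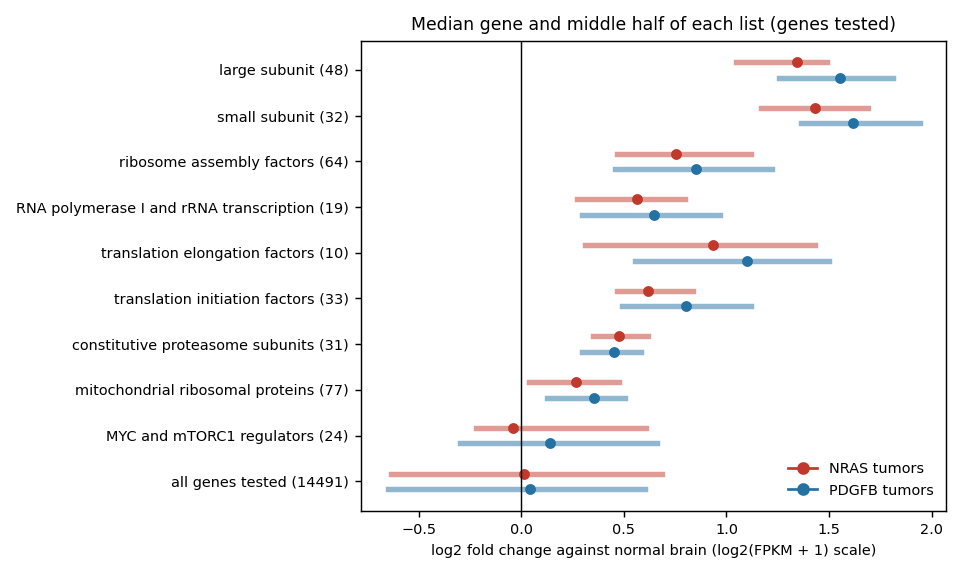
Median log2 fold change against normal brain (dots) and the range between the quartiles (bars) for the large and small subunit genes and for related lists, with the number of genes tested in parentheses, NRAS tumors in red and PDGFB tumors in blue. Both subunits have medians of 1.34 to 1.62, assembly factors 0.76 and 0.85, mitochondrial ribosomal proteins 0.26 and 0.36, and all genes tested 0.01 and 0.04.

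Of the regulators of ribosome genes, Myc rose by 3.52 in NRAS tumors and 3.97 in PDGFB tumors, from 1.69 ± 0.258 FPKM in normal brain (SD, n = 3) to 32.2 ± 14.8 and 42.0 ± 9.995 (SD, n = 4). Mycn stood at 3.42 ± 0.536 FPKM in normal brain, 2.99 ± 1.08 in NRAS tumors and 10.6 ± 2.02 in PDGFB tumors, and the difference between the models was -1.56 (SE 0.22, adjusted p = 0.0010, limma). Eif4ebp1, an mTORC1 target that blocks initiation, rose by 4.84 and 4.77. In the list of 24 regulators of MYC and mTORC1 as a whole 8 genes were higher and 4 lower in NRAS tumors, and 9 and 4 in PDGFB tumors, with medians of -0.04 and 0.14. All genes tested had 32.0% higher and 30.3% lower in NRAS tumors and 29.3% and 29.2% in PDGFB tumors. The count of 8 higher is near that share. Mdm2 rose by 1.62 in NRAS tumors, was at 0.47 in PDGFB tumors (adjusted p = 0.14), and stood 1.15 higher in NRAS than in PDGFB tumors (SE 0.24, adjusted p = 0.0058).

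A pair of other large machines, taken as a scale for the size of the change, had smaller medians. Of 77 mitochondrial ribosomal protein genes, which serve the ribosome inside mitochondria, 27 were higher and 1 lower in NRAS tumors and 35 higher and 1 lower in PDGFB tumors, with medians of 0.26 and 0.36. Of all genes tested, 32.0% were higher and 30.3% lower in NRAS tumors, and 29.3% and 29.2% in PDGFB tumors. The count of 27 higher is near that share. Mrps6 rose by 1.90 in NRAS tumors, to 158 ± 23.0 FPKM (SD, n = 4) from 41.5 ± 4.74 (SD, n = 3), and was 1.26 higher there than in PDGFB tumors (adjusted p = 0.00097, limma). Of 31 constitutive proteasome subunits 18 were higher in each comparison and 0 lower (also 0 at an unadjusted p under 0.05 by limma), with medians of 0.48 and 0.45.

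Marker genes of other cell types differed between the groups along with these genes. Genes of dividing cells (6 genes) summed to 43.7 to 46.7 FPKM in normal brain, 214 to 658 in NRAS tumors and 574 to 933 in PDGFB tumors, and all 6 were higher in each comparison. The shares over all genes were 32.0% higher and 30.3% lower in NRAS tumors and 29.3% and 29.2% in PDGFB tumors. Those of myelinating oligodendrocytes (6 genes) summed to 2336 to 7118, 310 to 1528 and 238 to 2184 FPKM, all 6 lower, and those of oligodendrocyte progenitors (4 genes) to 46.4 to 67.8, 81.7 to 382 and 670 to 774. Macrophage and monocyte genes (6 genes) summed to 14.2 to 16.4, 185 to 1854 and 39.85 to 68.1 FPKM, T and NK cell genes (6 genes) to 1.67 to 6.96, 8.54 to 236 and 0.435 to 1.45, and microglia genes (5 genes) to 122 to 146, 225 to 378 and 90.9 to 199, for normal brain, NRAS and PDGFB tumors in that order. Astrocyte genes (5 genes) summed to 443 to 520, 809 to 1447 and 295 to 766 FPKM, endothelial genes (4 genes) to 30.1 to 31.3, 45.9 to 71.7 and 42.4 to 66.2, choroid plexus and ependyma genes (4 genes) to 826 to 2026, 6.13 to 44.8 and 3.01 to 807, and erythrocyte genes (4 genes) to 0.477 to 14.9, 2.92 to 5.10 and 1.56 to 7.001. The genes of a list were not all called alike. In NRAS tumors 1 astrocyte, 3 microglia, 3 endothelial, 6 macrophage, 5 T and NK cell and 3 progenitor genes were higher. In PDGFB tumors these counts were 1, 1, 1, 1, 0 and 4, with 1 astrocyte, 1 microglia and 1 T and NK cell gene lower. Of choroid plexus and ependyma genes 3 were lower in each comparison, and no erythrocyte gene was called. No gene of these lists was listed at 0 in a whole tumor group, and 2 T and NK cell genes were at 0 in all normal brains. The part of these cell types in the levels of ribosomal protein genes was not tested.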

How the data were processed

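RNA-seq libraries of 3 normal brains, 4 NRAS tumors and 4 PDGFB tumors were analysed from 1 table of FPKM values per gene symbol, deposited by the authors. The submitters' processing notes name the aligner TopHat2 (2.0.13), Cufflinks (2.2.1) and mm10 as the build. How the authors shared reads that fit several genes is not stated there. Of 24347 rows, 27 whose symbols had become dates were left out. Genes with at least 1 FPKM in at least 3 libraries (14491) were tested as log2(FPKM + 1) with limma 3.58.1 in R 4.3.3 (all 11 libraries in 1 fit, moderated variances with a trend, two-sided, Benjamini-Hochberg over all genes tested, adjusted p under 0.05). A fold change on this scale understates changes of low genes. FPKM keeps no read total, so the depth of a library and its counting error are unknown. The scripts were tested on simulated data. Values of some single genes are not reported here.

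Named members were the 3 highest and 3 lowest by change in each comparison and by mean level, the genes with duties beside the ribosome, the paralogs with their parent genes, and members called between the models; of other lists, up to 3 genes with the smallest p in each comparison. Others named, among them Rpl12 and Eef1a2, were chosen after their values were seen. The members and lists were chosen with earlier results of these data known. Alternatives were pseudocounts, filters, scalings, variance model, samples in the fit, the replicate block, title matches, title number series and leaving out each library. Coding sequences came from GENCODE M21 (GRCm38) and were compared with BLAST+ 2.17.0; promoters came from RefSeq (GRCm38.p6). Tables and figures used Python 3.11.15, pandas 2.3.3 and matplotlib 3.10.9.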

Additional observations from a re-analysis of the deposited data

Results flagged for a closer look

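None of the 27 named ribosomal protein genes had a library standing apart from the rest of its group of 4 by Dixon's test at the 95% level. The test looks at 1 extreme value, so it cannot flag a group split into 2 pairs. Rps27 in NRAS tumors is such a group, at 67.3, 68.9, 5.66 and 6.85 FPKM. Over 162 groups of values tested, chance flags about 1 in 20, and 6 values were flagged, all in related lists. In NRAS tumors these were Ddx21 at 24.2 FPKM and Eif5a2 at 9.32 FPKM, and in PDGFB tumors Eif4e3 at 1.66 FPKM, Mrto4 at 90.2 FPKM, Psmd11 at 52.2 FPKM and Psmd4 at 123 FPKM.

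The change against normal brain differed between NRAS and PDGFB tumors, by limma's test of the difference, for Rpl15 (-0.57) and Rps27 (2.18) among the ribosomal protein genes, on the log2(FPKM + 1) scale. Among named genes of other lists it was higher in NRAS tumors for Eif4e3 (1.35), Mrps6 (1.26) and Mdm2 (1.15). It was lower there for Mycn (-1.56), Mxd4 (-0.56), Nob1 (-0.55), Bysl (-0.54), Mrpl50 (-0.53), Bop1 (-0.47), Rps6kb1 (-0.46), Eif4g3 (-0.42), Mrpl57 (-0.40) and Eif4h (-0.36).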

How the results depend on the processing

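Against normal brain, 77 and 78 higher and 1 and 1 lower genes in NRAS and PDGFB tumors stayed within 1.5 times under all alternatives run but centring. The lowest counts were 66 higher (title numbers 1834 to 1838 only) and 64 (title number series as covariate). Shares over all genes are given here for the main and the centred fit only. Leaving out each library in turn gave 72 to 77 and 77 to 78 higher genes, with medians of 1.23 to 1.51 and 1.49 to 1.71. PDGFB tumors and normal brains could not be compared within 1 title number series. Between the models, leaving out a library gave 0 to 1 higher and 0 to 5 lower genes, the 5 without NRAS tumor 1, and medians of -0.40 to -0.13.

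Same-numbered samples did not deviate together (correlations of -0.50 to 0.16 over 10 pairs, 2 above 0.1). For the pairs that the titles match, the correlation was -0.083 (normal brain 1, NRAS tumor 2) and 0.13 (normal brain 3, PDGFB tumor 1). With the replicate block, 74 genes were higher in NRAS tumors against normal brain, and 1 was higher and 0 were lower between the models.

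Between the models by limma, with the counts at an unadjusted p under 0.05 after each, a pseudocount of 5 and no filter gave 0 higher genes (1 and 2) and quantile normalization 0 higher (2) and 11 lower. Leaving out small RNA rows gave 3 lower, and scaling to the other genes 0 lower (0). The tumors alone gave 0 higher (2) and 0 lower (3), as did the series covariate (2 and 3) and numbers 2038 to 2046 alone (1 and 3).

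Centred on the 80 genes, counts were 7 higher and 26 lower with a median of -0.084 (NRAS tumors against normal brain), 8 and 30 with -0.16 (PDGFB tumors), and 3 and 0 between the models. Relative to the median gene, signs turned for 52 of the 80 genes in NRAS tumors, for 48 in PDGFB tumors and for 40 between the models, by the construction of the centring. Of the genes chosen by the naming rule, they turned in NRAS tumors for Rpl10 (-0.14), Rpl11 (-0.27), Rpl13 (-0.26), Rpl15 (-0.45), Rpl22 (-0.049), Rpl22l1 (-1.24), Rpl3 (-0.62), Rpl30 (-0.052), Rpl38 (-0.78), Rpl41 (-0.40), Rpl7 (-0.026), Rpl7l1 (-0.42), Rplp1 (-0.50) and Rps6 (-0.17). Of these genes they turned in PDGFB tumors for Rpl10 (-0.34), Rpl11 (-0.24), Rpl15 (-0.16), Rpl22l1 (-0.80), Rpl3 (-0.67), Rpl30 (-0.63), Rpl38 (-0.81), Rpl41 (-0.54), Rpl7l1 (-0.48), Rplp1 (-0.58) and Rps6 (-0.16). Between the models they turned, of these genes, for Rpl10 (0.20), Rpl3 (0.053), Rpl38 (0.028), Rpl39 (0.020), Rpl41 (0.13), Rpl7l1 (0.056), Rplp0 (0.050), Rplp1 (0.079), Rplp2 (0.022) and Rps12 (0.025). Rpl10 between the models also turned with quantile normalization (0.037), scaling to the other genes (0.055), and the series covariate and numbers 2038 to 2046 (0.053 in each). Leaving out each library in turn, which turned the sign without NRAS tumor 2 or PDGFB tumor 4, gave -0.20 to 0.12 for Rpl10 and -0.27 to 0.019 for Rpl41, and gave -0.32 to 0.0081 for Rplp1 with a turn without PDGFB tumor 4. Rps27 in PDGFB tumors against normal brain turned to 2.94 with the series covariate, by the construction of that fit. The covariate is estimated from NRAS tumors alone, with Rps27 at 67.3 and 68.9 FPKM in tumors 1 and 2 and 5.66 and 6.85 in tumors 3 and 4. That difference is carried over to the PDGFB estimate, while the PDGFB tumors themselves stood at 3.04 to 4.88 FPKM. The unknown depth limits what can be said of the lowest genes, Rps4l and Rps27.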
